A study of Mus musculus with 4 samples.

Results

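The nuclear-encoded respiratory chain genes were followed through 4 lists of candidate N6-methyladenosine (m6A) sites from mouse retinal organoids. Members were all genes in the lists whose names start with Nduf, Uqcr, Cox4 to Cox8, Atp5 or Sdh, leaving out names with -ps. This gave 99 annotated genes under 98 names, of 29181 in the lists, with Atp5o present under 2 gene identifiers. Sorted by name, 51 were counted to complex I (7 core subunits, 36 accessory subunits and 8 assembly factors). Complex II had 3 subunits and 4 assembly factors, complex III 7 genes, complex IV 17 and complex V 17. Every Nduf name outside the 7 core subunits and the Ndufaf names was counted as an accessory subunit, Ndufa4 and Ndufa4l2 included. Neither the complex of each protein nor the gene type was checked, and short genes such as Ndufs6b (348 bases) were kept. Cox4i1 and Sdha were not analysed here.

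The comparison was of 2 groups with 2 libraries each. Wild-type organoids came from Rx:GFP, a mouse line that carries a GFP reporter of the eye field gene Rax. Knockout organoids came from a Mettl3 KO derivative of the same line, and the growth protocol adds that this KO carries an HA-METTL3 transgene inducible by doxycycline. All 4 libraries are labelled as untreated, with 1 batch label, and were grown to day 4 in GMEM with 5% KSR and AGN at 0.1 µM. No label says whether the replicates were separate cultures, so p-values measure only the spread between these libraries, which may be technical.

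The respiratory chain moves electrons from NADH (complex I) and succinate (complex II) through ubiquinone to complex III and then to oxygen at complex IV. Complexes I, III and IV pump protons, and complex V uses the gradient to make ATP. Most subunits are encoded in the nucleus and joined in the inner mitochondrial membrane by assembly factors to a small mitochondrially encoded core. METTL3 carries the catalytic site of the enzyme complex that writes most m6A in mRNA. GLORI treats RNA with glyoxal and nitrite, which turns unmodified adenosine into a base read as G, while m6A is still read as A. The level of a site is therefore the share of its A and G reads that were still A.

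Nuclear respiratory chain genes are known for binding sites of NRF1 and other factors in their promoters, and motifs of these were looked up in the RefSeq promoter table (GRCm38.p6, from 250 bases before to 50 bases after the start; 78 of 98 names matched). Of the 8 genes whose coverage or strong sites are described below as results, 2 held one of the motifs searched, and those elements are shown. Ndufaf1, Ndufv3, Cox7a2l, Uqcr10, Ndufaf7 and Ndufa13 had none of these letters in the window. Capitals mark the motif: TGACGTCA, the cAMP response element, for Uqcrfs1, and the motif of the transcription factor NRF1 (GCGCA, any base, then GCGC, on either strand), for Sdhaf4.
Uqcrfs1 (chr13:30545318-30545365, minus strand): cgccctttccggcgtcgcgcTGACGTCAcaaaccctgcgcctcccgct
Sdhaf4 (chr1:24005603-24005652, minus strand): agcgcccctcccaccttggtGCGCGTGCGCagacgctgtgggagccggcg

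The NRF1 motif was present in 19 of the 78 matched member promoters (24.4%) and in 1402 of all 27025 promoters (5.19%). AAGATGGCG, the motif of YY1, was present in 8 (10.3%) against 1.64% of all promoters, and the cAMP response element in 4 (5.13%) against 2.03%. Both strands were searched, and no motif contains another. The promoter coordinates are those of GRCm38.p6; the submitters' processing notes name mm10 for the lists, but gene positions in the lists differ from that build, so site positions below are given as the lists have them and cannot be set against the promoters. A match describes these letters and does not show that a factor binds.

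Each list held between 215850 and 288516 sites, with a median of 38 to 41 reads per site, and no listed site had fewer than 15 reads, fewer than 5 unconverted reads or a level under 0.1. The targeted gene gave no check of the labels: Mettl3 had a gene coverage of 50.6 and 45.9 in wild type and 62.0 and 48.3 in the knockout, and the part of the gene that was deleted is not given in the sources used here. Rax had 20 and 35 sites in wild type and 0 in both knockout lists. Among 5 eye field and neural markers with coverage in every library, the summed coverage was 35.8 and 38.2 times the median gene in wild type and 14.6 and 13.3 times in the knockout. Six3, Lhx2 and Sox2 fell by 3.01, 2.81 and 0.79 on the log2 scale (limma, adjusted p = 9.41e-06, 9.41e-06 and 0.0296), Pax6 and Sox1 did not pass, and Six6 had no site in any list. The pluripotency markers Pou5f1 and Nanog summed to 2.99 and 3.58 times the median gene in wild type and 2.24 and 1.83 times in the knockout. Of these 2, 0 were called, and 2 were lower at an unadjusted p under 0.05 (limma), as were 11.7% of all genes. No mesoderm or endoderm marker and 1 neural crest marker (Foxd3, not called) had coverage in every library. In bulk RNA, fewer cells of a type and less RNA per cell cannot be told apart, and the part that the makeup of the organoids has in the values below was not tested.

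The number of listed sites in respiratory chain genes was similar in the 2 groups. The 99 genes held 698 and 774 sites in wild type and 661 and 719 in the knockout. Per 10000 listed sites of a library this was 30.7 and 26.8 against 28.7 and 33.3, and the groups overlapped. The means were 28.8 ± 2.74 and 31.0 ± 3.26 (SD, n = 2), a ratio of 1.08 (two-sided exact permutation p = 0.667, where 2 against 2 libraries cannot go below 0.33). Without knockout replicate 2 the ratio was 0.998. At least 1 site was listed for 94 of the genes, and 84 had a site in every list. The 5 without a site were Ndufb11b, Ndufb4c, Cox6a2, Cox7b2 and Cox8b.

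**Figure D1:**
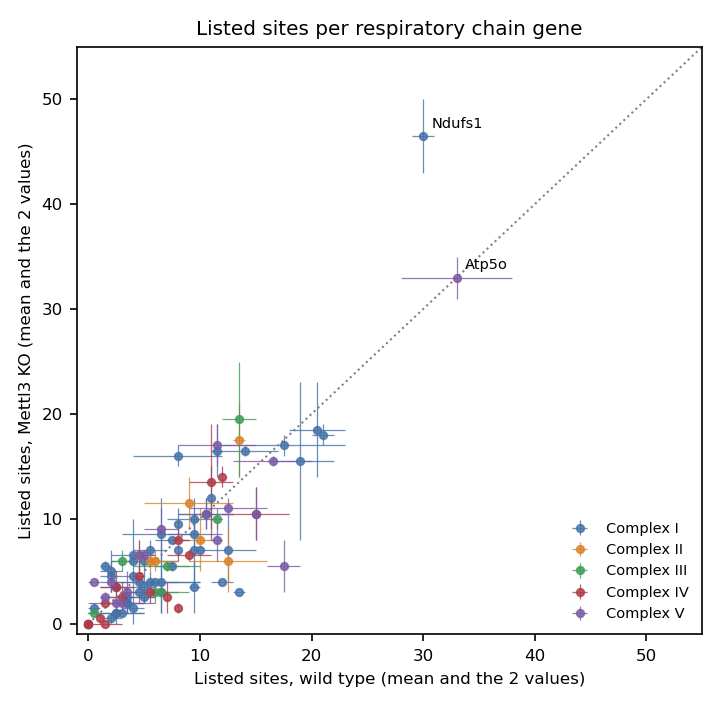
Listed sites in each respiratory chain gene, wild type on the x axis and Mettl3 KO on the y axis; points are means of 2 libraries, bars join the 2 values, colour is the complex and the dotted line marks equal numbers. Most genes lie near the line; Ndufs1 is the farthest above it, with 29 and 31 sites in wild type and 50 and 43 in the knockout.

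Ndufs1, the large iron-sulfur subunit in the electron input module of complex I, had the most listed positions, 141 over the 4 libraries. It held 29 and 31 sites in wild type and 50 and 43 in the knockout, so the groups did not overlap. The share of all genes whose site numbers did not overlap is not given here, and Ndufs1 was picked for its number of positions. Its coverage was 1.55 and 1.71 times the median gene in wild type and 1.41 and 0.985 times in the knockout. This difference did not pass (log2 change -0.46, limma, adjusted p = 0.197). Coverage below wild type without overlap was seen in 29.1% of all genes. Next came the longer of the 2 Atp5o genes (121 positions), Ndufa13 (72), Ndufv1 (71) and Ndufa10 (66). The Atp5o gene of 242585 bases also spans Donson and Cryzl1, and all 72 positions of Ndufa13 lie in Yjefn3 too, so their sites cannot be given to 1 gene.

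Levels were low in both groups. The median level of member sites was 0.217 and 0.211 in wild type and 0.196 and 0.188 in the knockout. The groups did not overlap, with means of 0.214 ± 0.00444 and 0.192 ± 0.00607 (SD, n = 2; exact permutation p = 0.33, the smallest possible). Over all listed sites the means were 0.244 and 0.223, also without overlap. Median reads at member sites were 47 and 50 in wild type and 48 and 59 in the knockout.

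Among the roles, chosen for their values, the complex II assembly factors had the lowest and the complex I core subunits the highest level in the knockout relative to wild type. The groups were also apart, lower in the knockout, for the accessory subunits and assembly factors of complex I and for complexes III and V. Complex II subunits and complex IV overlapped. The exact test cannot go below 0.33 for any role. Sites in the 4 complex II assembly factors had median levels of 0.336 and 0.270 in wild type and 0.176 and 0.167 in the knockout, at median reads of 36.5 and 38 against 45.5 and 52. Sites in the 7 complex I core subunits had median levels of 0.157 and 0.143 in wild type and 0.192 and 0.20 in the knockout. Median reads at the core subunit sites were 77 and 83.5 in wild type and 55 and 58 in the knockout. A listed site has at least 5 unconverted reads and a level of at least 0.1. By these limits the lowest level that can be listed rises as reads fall below 50 reads. Median reads lay above 50 in every library for the core subunits, but only in knockout replicate 2 for the complex II assembly factors. A median does not show how many sites lie under 50 reads. In both roles the lower levels stood with the higher reads, and the part of read depth in these differences was not tested.

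Well-covered sites of high level were more frequent in wild type. Sites with at least 100 reads and a level of at least 0.3 numbered 10 and 15 in wild type and 1 and 6 in the knockout (12.5 ± 3.54 and 3.5 ± 3.54, SD, n = 2; exact permutation p = 0.33). They were 5.95% and 6.82% of well-covered member sites in wild type and 0.833% and 2.86% in the knockout, against 12.7% and 12.5%, and 3.45% and 4.60%, over all genes. All 10 of the first wild-type library were also in the list of the second, and 11 of the 15 were in the first. None of the 7 in the knockout libraries was in the list of the other knockout library.

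Both limits were met in both wild-type libraries by 10 sites in 6 genes, and 0 of the 10 was in a knockout list. These 10 were chosen for high wild-type levels, and the same count over all genes is not given here. The absence therefore describes these sites and does not set the members apart. Cox7a2l, a factor that joins complexes III and IV into supercomplexes, held 3 of them (gene at chr17:83809347-83824759, minus strand). The site at chr17:83810016 had levels of 0.965 and 0.954 at 346 and 324 reads. The site at chr17:83809721 had levels of 0.707 and 0.646 at 484 and 480 reads, and the site at chr17:83809846 had 0.412 and 0.349 at 570 and 823 reads. They lie 669, 374 and 499 bases from the 3′ end of the gene.

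Depth can be set beside the missing sites. Multiplying the mean wild-type reads by the ratio of the gene's coverage gives 361 and 248 expected reads at the first Cox7a2l site in the knockout libraries, 519 and 356 at the second and 749 and 514 at the third. Gene coverage of Cox7a2l was 396 and 405 in wild type and 432 and 296 in the knockout. The knockout lists still held 13 and 15 other sites in Cox7a2l, with levels from 0.102 to 0.327, while the wild-type lists held 12 each, with levels up to 0.965.

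Uqcrfs1, the Rieske iron-sulfur protein of complex III, held 3 more. The site at chr13:30724705 (minus strand) had levels of 0.924 and 0.926 at 302 and 390 reads. At chr13:30725187 the levels were 0.496 and 0.470 at 703 and 911 reads, and at chr13:30724887 they were 0.445 and 0.361 at 539 and 465 reads. These sites lie 414, 896 and 596 bases from the 3′ end. Their expected reads in the knockout were 636 and 462, 1484 and 1076, and 940 and 682. A further wild-type site of this gene, chr13:30725031, had levels of 0.346 and 0.260 in wild type and was listed in knockout replicate 2 at 0.237.

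**Figure D2:**
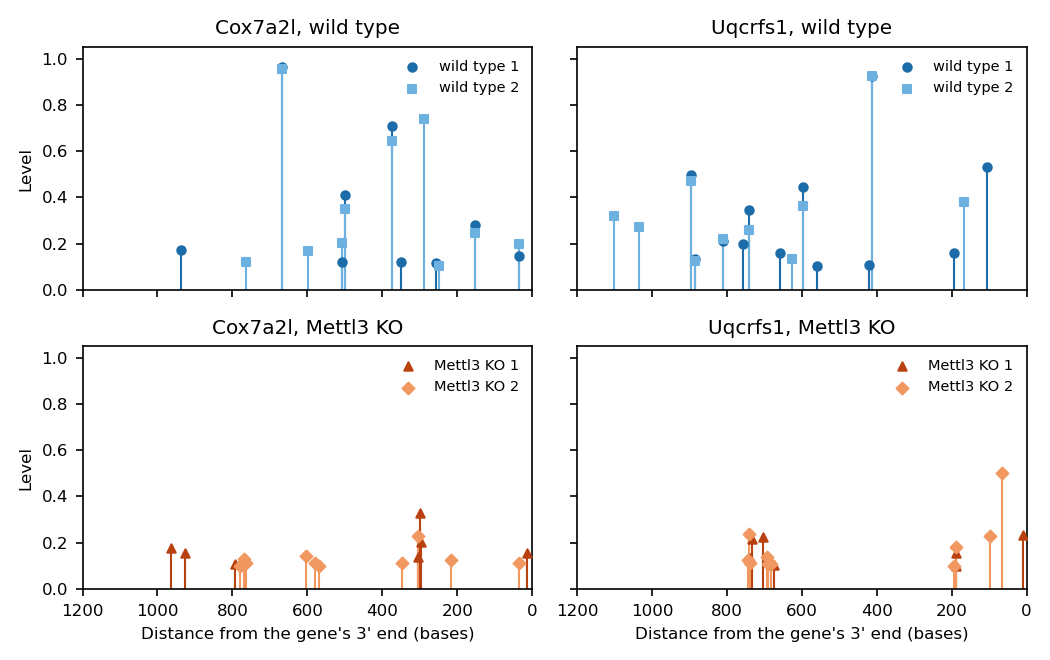
Level of every listed site within 1200 bases of the 3′ end of Cox7a2l and Uqcrfs1, in wild type (top) and Mettl3 KO (bottom); each stem is 1 site in 1 library. The highest stems of the wild-type panels, up to 0.965 in Cox7a2l and 0.926 in Uqcrfs1, have no counterpart in the knockout panels, where the highest levels are 0.327 and 0.50.

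The other 4 strong sites fell in 4 genes. Uqcr10, a small subunit of complex III, had levels of 0.559 and 0.566 at chr11:4652032 (397 and 244 reads), 59 bases from its 3′ end. Ndufaf7, a methyltransferase needed for complex I assembly, had 0.930 and 0.667 at chr17:79254429 (128 and 159 reads). Sdhaf4, a chaperone of complex II assembly, had 0.439 and 0.646 at chr1:24035295 (198 and 130 reads). In Sdhaf4 the wild-type values differed beyond their 95% Wilson intervals (0.372 to 0.509 and 0.561 to 0.723), as they did for Ndufaf7 (0.872 to 0.963 and 0.590 to 0.735). Ndufa13, an accessory subunit of complex I, had 1.00 and 0.955 at chr8:70354901 (133 and 199 reads), 307 bases from its 5′ end and also inside Yjefn3. Intervals cover counting error only.

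**Figure D3:**
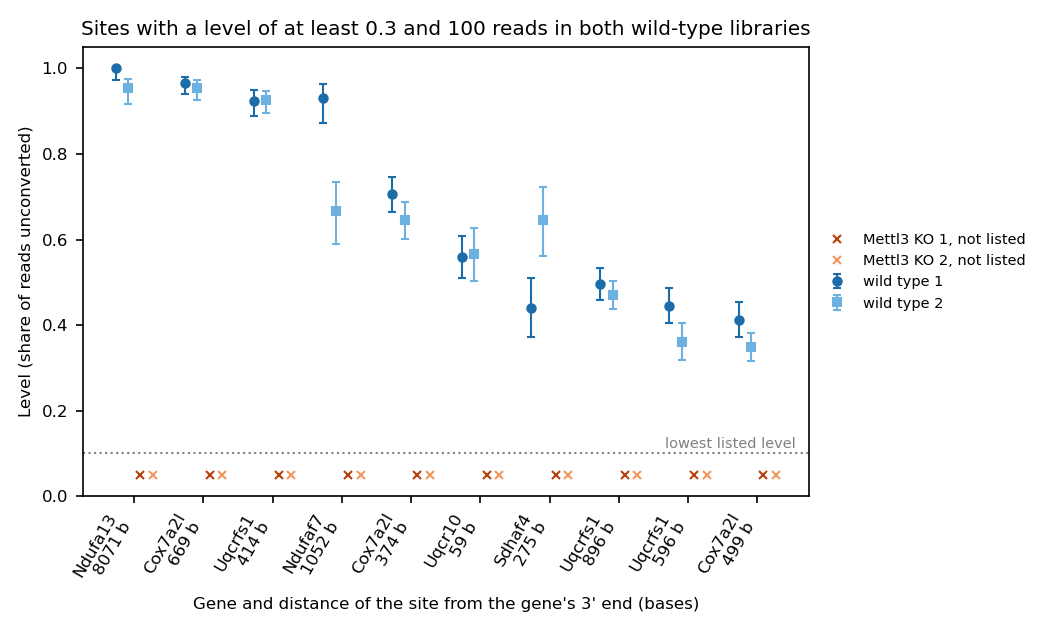
Levels of the 10 strong wild-type sites with 95% Wilson intervals; crosses at the bottom mark knockout libraries in which the site is not listed, at no measured level, and the dotted line is the lowest listed level of 0.1. Wild-type levels run from 0.349 to 1.00, and no site has a knockout value.

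Of the highest sites shared by both wild-type lists, several were thinly covered. Sdhaf1, which helps insert iron-sulfur clusters into complex II, had 0.913 and 0.914 at chr7:30021057 on only 69 and 35 reads, with 34.0 and 55.6 expected in the knockout. A pair of further Ndufa13 sites had 0.915 and 0.930 at chr8:70354691 and 0.842 and 0.966 at chr8:70354773. The site at chr16:91486620, inside the long Atp5o gene and far from the short one, had 0.864 and 0.946 on 44 and 56 reads. At these depths a site that is not listed may be absent or under the listing limits.

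Member sites were rarely listed more than once. Of 2584 member positions, 90.9% were in a single list and only 4 appeared in every list. Wild-type replicates shared 91 positions (6.59% of their union), the knockout libraries 39 (2.91%), and the 4 pairs across groups 36 to 48. Sites shared by both wild-type lists were present in 49 genes. Of the 91, 73 were in neither knockout list, 80.2% (95% Wilson interval 70.9% to 87.1%), against 83.7% over all genes, so this share did not set the members apart from the background. Among the 54 with at least 50 expected reads in both knockout libraries, 45 were in neither list (83.3%). With a level of at least 0.3 as well, it was 11 of 12, and the exception was the Uqcrfs1 site listed in knockout replicate 2. Shares over all genes under these 2 limits are not given here, so neither count is read as particular to the members.

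In the other direction, 25 of the 39 sites shared by the knockout lists were in neither wild-type list, 64.1% (48.4% to 77.3%), against 73.4% over all genes. The highest of these were low or thinly covered. Atp5g2, which encodes the c subunit of the ATP synthase ring, had 0.55 and 0.20 at chr15:102579317 on 20 and 25 reads. Ndufaf8, a complex I assembly factor, had 0.30 and 0.33 at chr11:119990067 on 60 and 27 reads. Ndufs1 had 0.280 and 0.294 at chr1:63182990 on 100 and 51 reads, 235 bases from its 3′ end, and 0.241 and 0.30 at chr1:63183040 on 29 and 20 reads. A wild-type site of the same gene, chr1:63182948, lay 193 bases from that end, with 0.235 and 0.216 on 132 and 134 reads and no knockout listing.

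Sites shared by the wild-type libraries lay toward the 3′ end of member genes. Of 81 such sites in a single gene, 46 were within 1000 bases of the 3′ end (56.8%), against 32.8% over all genes. Member sites in only 1 list were there in 29.4% of cases, against 19.8%. The median length of member genes was 7284 bases, and the part of gene length in these shares was not tested. Whether a site is exonic, intronic or in an untranslated region was not analysed here.

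Only 4 member sites were in all 4 lists. For 3 of them (both Cox5a sites and the Uqcr10 site) the lists give a coverage value shared by sites along the whole chromosome in place of a gene's own, as for 21.1% to 36.1% of member sites in a library. Of 14 such sites shared by wild type, 8 were in neither knockout list (57.1%). Cox5b, a subunit of cytochrome c oxidase, had levels of 0.155 and 0.138 in wild type and 0.155 and 0.172 in the knockout at chr1:36731303, on 343 to 639 reads. Uqcr10 had 0.237 and 0.188 against 0.303 and 0.194 at chr11:4652805, 832 bases from its 3′ end. The strong site of the same gene, nearer to that end, was in neither knockout list. Cox5a, another subunit of the same enzyme, had 0.903 and 1.00 against 0.969 and 1.00 at chr9:57436237. A second Cox5a site, chr9:57439563, had 1.00 and 0.867 against 1.00 and 0.762 on 15 to 21 reads.

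Of these, 3 had at least 20 reads in every library and were tested. None passed (edgeR quasi-likelihood test, adjusted p = 0.912 for Cox5b, 0.951 for Uqcr10 and 0.863 for Cox5a). The count was 0 at an unadjusted p under 0.05, and also 0 by limma and by edgeR's likelihood ratio test. Over all 1557 sites tested, 2.63% were called. Summed per gene, 3 member genes were tested and 0 called, against 5.53% of 850. A site can enter this test only if the knockout libraries still list it, so the strong wild-type sites could not be tested for level.

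Gene coverage, the authors' coverage value for the gene of a site, was present in every library for 65 of the 99 members, and the other 34 were not tested. Expressed per library median and compared with limma, 3 of the 65 were higher in the knockout and 0 lower, against 2.2% higher, 2.51% lower and 4.71% in either direction over 9283 genes. The median log2 change was 0.01, against -0.02 over all genes, with 34 members above 0 and 31 below. At an unadjusted p under 0.05 there were 7 higher and 8 lower, against 10.6% and 11.7%. The groups did not overlap for 11 members that were above wild type and 13 below, against 24.2% and 29.1% of all genes. Neither share exceeds the background.

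Uqcrfs1 rose. Its coverage was 390 and 470 in wild type and 793 and 575 in the knockout, or 7.52 and 7.93 against 14.3 and 12.2 times the median gene. This was a log2 change of 0.77 ± 0.17 (SE) with an adjusted p of 0.0293 (limma). The groups did not overlap. Uqcrfs1 also held 3 strong wild-type sites that the knockout lists lacked, and a link between these sites and its coverage was not tested.

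Ndufaf1, an assembly factor of the membrane arm of complex I, rose from 49.6 and 49.1 to 87.4 and 70.0. Its log2 change was 0.78 ± 0.17 (limma, adjusted p = 0.0269). It held 4 sites shared by the wild-type libraries, all 4 in neither knockout list, but with few reads. The highest, at chr2:119488776, had levels of 0.60 and 0.40 on 15 and 20 reads.

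Ndufv3, an accessory subunit near the NADH site of complex I, rose from 60.4 and 66.7 to 90.5 and 110. Its log2 change was 0.77 ± 0.20 (limma, adjusted p = 0.0480). The knockout libraries were above both wild-type libraries for all 3 genes. Without centring on the library median the adjusted p-values (limma) were 0.126 for Uqcrfs1, 0.120 for Ndufaf1 and 0.128 for Ndufv3. Ndufv3 also did not pass with quantile normalization (limma, adjusted p = 0.0621) or with the most frequent coverage value of a gene (0.0575). Uqcrfs1 and Ndufaf1 passed in both of these. Ndufv3 passed with a pseudocount of 1 (limma, adjusted p = 0.0469), among genes above the median coverage (0.0251) and with a replicate block (0.00685). With a single library left out, 1 group holds 1 library, assumed to vary like the other group. Only Ndufaf1 was then called, without wild-type replicate 1 (limma, adjusted p = 0.0406), while the log2 changes ran from 0.66 to 0.90 for Uqcrfs1, 0.68 to 0.88 for Ndufaf1 and 0.52 to 1.03 for Ndufv3.

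**Figure D4:**
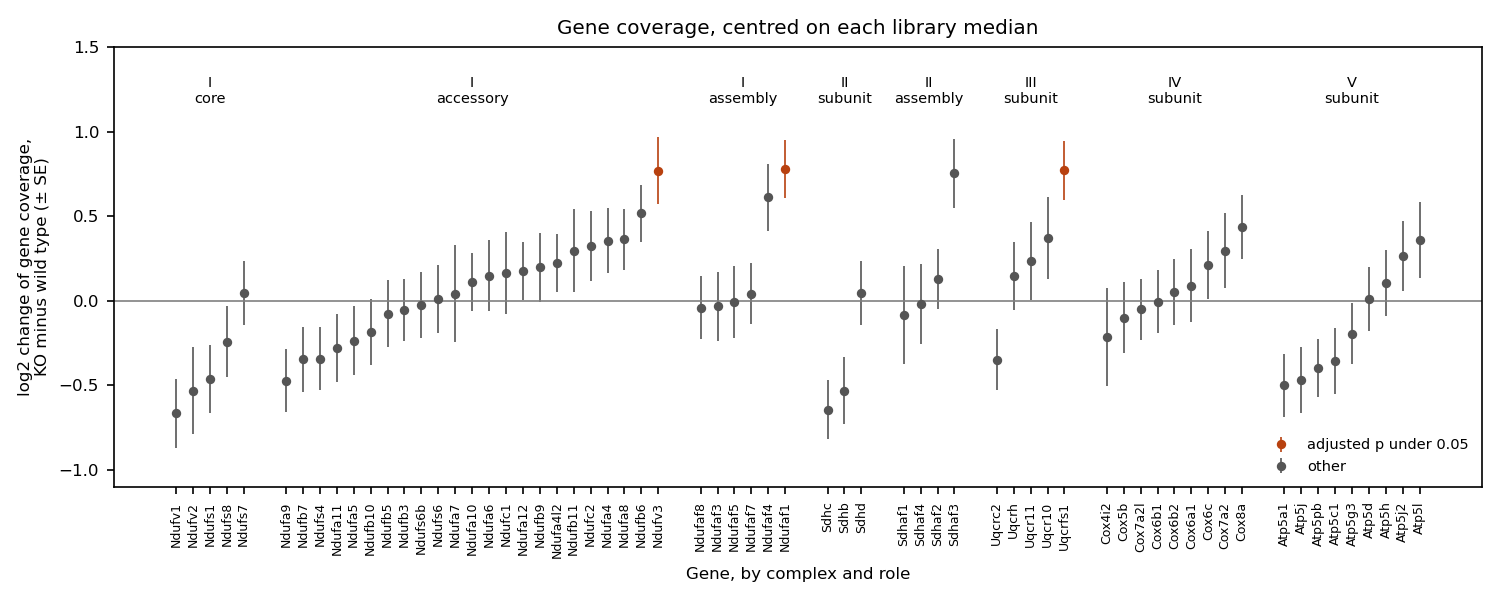
Change in gene coverage (log2, Mettl3 KO minus wild type, ± SE) for members with coverage in every library (1 is not drawn), grouped by complex and role and ordered by change; orange points have an adjusted p under 0.05. Uqcrfs1, Ndufaf1 and Ndufv3 lie at 0.77 to 0.78, the highest points of the plot.

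By role, the medians of the log2 changes in coverage ran from -0.53 for the 3 complex II subunits to 0.23 for 5 complex III subunits. The 6 measured core subunits of complex I had a median of -0.40, with 5 below 0 and 0 called (2 lower at an unadjusted p under 0.05, limma). Ndufv1, the NADH-binding core subunit, had 2.17 and 2.50 times the median gene in wild type and 1.78 and 1.22 times in the knockout (limma, adjusted p = 0.0855). The 23 accessory subunits had a median of 0.11 and the 6 assembly factors 0.02. Complex IV (9 genes) had 0.05 and complex V (9 genes) -0.19, both with 0 called (1 higher and 3 lower at an unadjusted p under 0.05, limma).

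Other members named for a high deposited coverage value did not pass. Ndufa7, an accessory subunit of complex I, had 652 and 366 in wild type and 595 and 363 in the knockout (log2 change 0.04; limma, adjusted p = 0.951), with overlap. Sdhc, a membrane anchor of complex II, had 559 and 600 in wild type and 404 and 290 in the knockout (log2 change -0.64; limma, adjusted p = 0.0573), without overlap. Cox8a, a small complex IV subunit, had 2271 and 1936 against 2996 and 2299 (log2 change 0.44; limma, adjusted p = 0.202). Atp5g3, which also encodes the c subunit, had 1462 and 1392 against 1326 and 1003 (log2 change -0.19; limma, adjusted p = 0.568). Whether gene coverage is per length is not given in the sources used here, so the order of these values between genes is not an order of transcript levels.

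Members with strong wild-type sites did not share a change in coverage. The 5 with a coverage value (Cox7a2l, Ndufaf7, Sdhaf4, Uqcr10 and Uqcrfs1) had a median log2 change of 0.04, from -0.05 for Cox7a2l to 0.77 for Uqcrfs1. The 41 members with any site shared by the wild-type libraries had a median of 0.04, and the 24 without one had 0.00.

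Of 29 other genes of the pathway with coverage, 3 were higher in the knockout and 0 lower, against 2.2% and 2.51% over all genes. At an unadjusted p under 0.05 (limma) 6 were higher and 1 lower, against 10.6% and 11.7% over all genes. These shares also stand beside the counts of the lists that follow. Tmem70, which helps build the ring of complex V, had a coverage of 41.5 and 44.8 in wild type and 105 and 69.1 in the knockout (log2 change 1.09; limma, adjusted p = 0.00800). Coa7, an assembly factor of complex IV, had 40.7 and 44.3 against 79.4 and 77.4 (log2 change 1.00; limma, adjusted p = 0.00902). Sco2, which delivers copper to complex IV, had 28.3 and 28.2 against 45.9 and 41.2 (log2 change 0.74; limma, adjusted p = 0.0328). Of 8 regulators of the pathway 0 were called (1 higher at an unadjusted p under 0.05, limma). Among the mitochondrially encoded genes, mt-Nd3, mt-Nd5 and mt-Cytb were measured, with log2 changes of 0.49, 0.60 and 0.54 and 0 called (3 at an unadjusted p under 0.05, limma). In the mitochondrial ribosomal proteins 3 of 64 were higher and 0 lower (19 and 2 at an unadjusted p under 0.05, limma). In the cytosolic ribosomal proteins 2 of 55 were higher and 0 lower (12 and 0 unadjusted). Of 8 hypoxia and glycolysis genes 0 were called (2 higher and 4 lower at an unadjusted p under 0.05, limma).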

How the data were processed

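The members, gene lists and tests were chosen with earlier results of these data known. The authors deposited, for each library, a list of sites with read counts (A plus G reads and unconverted reads), the fraction of unconverted reads, the fraction of converted bases of the gene, a coverage signal of the gene and a p-value. Per the submitters' processing notes the build is mm10, but only 5 of 98 matched members start within 1000 bases of their GRCm38 position, so site positions are printed as the lists give them and the promoters are on another set of coordinates. The aligner and caller are not given in the sources used here. Repeated positions were counted once. A site was given to every gene on its strand whose start and end enclose it.

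Counts at sites in all 4 lists with at least 20 reads were tested with edgeR 4.0.16 (quasi-likelihood, R 4.3.3), and log2 gene coverage, centred on each library's median, with limma 3.58.1, both adjusted by Benjamini-Hochberg over all features. Gene coverage was taken where a gene had 1 value. In simulated data with 200 strongly changed features the site test (1557 sites) and the coverage test (9283 genes) each recovered 200, with 6 and 3 false calls. The simulated coverage changes were larger than those of the called members, and each simulation used 1 setting of spread for all features. Recovery and false calls at the smaller changes and uneven spread of these data were not tested. Named were the sites in all 4 lists, the 10 highest sites shared by wild type and 5 by the knockout, members past the coverage threshold, the most covered and most site-rich members, and called genes of other lists. Sites named beyond this rule (the strong sites with at least 100 reads, and single sites or genes set beside them) were chosen after their values were seen. Results for a few genes are not reported here.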

Additional observations from a re-analysis of the deposited data

How the results depend on the processing

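The ratio of member sites per 10000 listed sites (1.08) ranged from 0.998 to 1.16 with 1 library left out, reversing only without knockout replicate 2, at 0.998. The share of sites shared by wild type and in neither knockout list (80.2%) was 89.7% at levels of at least 0.2 and 86.8% to 89.4% with 1 library left out. Without a knockout library only 1 knockout list can hold a site, and without a wild-type library the share is over all sites of the remaining wild-type list (692 of 774 and 624 of 698), which is another quantity. The count of members called for coverage (3 of 65) was 0 without centring, where 375 of all 9283 genes were called. Among genes above the median coverage it was 7 of 58 (6 higher, 1 lower), against 607 of all 4641. With a replicate block it was 7 of 65 (5 higher, 2 lower), against 804 of all 9283. The replicate numbers were not taken as pairs (correlation of their differences -0.0172 over 2 pairs). The median coverage change of members (log2 0.01) was -0.10 without centring, which lowers every gene alike, and -0.14 to 0.23 with 1 library left out (-0.01 without knockout replicate 1 and -0.14 without wild-type replicate 2). Adjusted p-values (limma) over all settings ran from 0.00652 to 0.128 for Uqcrfs1, 0.00590 to 0.191 for Ndufaf1 and 0.00685 to 0.255 for Ndufv3. The site and gene level tests called 0 members in every setting run, with at most 1 at an unadjusted p under 0.05. The cause of these differences was not tested. Restricting to sites in a single gene or to at least 50 expected reads was chosen after seeing the data. Sites under 15 reads or a level of 0.1 cannot be seen in these lists.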

Other observations

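The deposited conversion fraction, the share of adenosines of a gene read as G, had medians over the members of 96.2% in both wild-type libraries and 96.9% and 96.2% in the knockout, against 96.1% and 96.2%, and 97.1% and 96.6%, over all genes. Among members with a value in every library, Sdhaf1 differed most, with 91.6% and 92.0% in wild type and 96.9% and 96.8% in the knockout. Members without a value in every library were not ranked. Sdhaf2, which attaches the flavin of complex II, had 94.3% and 93.7% in wild type and 97.4% and 97.0% in the knockout. The largest fall among the ranked members was in Ndufv2, a core subunit of complex I, with 96.5% and 96.7% in wild type and 93.6% and 95.1% in the knockout. These differences were not tested.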
